A study of Rattus norvegicus with 4 samples.

Results

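The 10 genes described here are the core and naive pluripotency factors Nanog, Pou5f1, Sox2, Klf2, Klf4, Klf5, Esrrb, Tfcp2l1, Tbx3 and Dppa3, chosen by symbol among the 32753 genes of the deposited tables. Each of the 10 symbols matched 1 row. RNA-seq measured them in embryoid bodies from rat, the aggregates that pluripotent cells form when they begin to differentiate. These were made from embryonic stem cells labelled as strain DASD. One group was wild type (WT) and the other Kcnh2-/-, mutant in the gene of the potassium channel ERG1, with 2 libraries each, all collected at day 4 of differentiation. Both genotypes had the same culture: hanging drops for 2 days and plating on laminin for 24 hours, both with CHIR9902 (0.75 µM) and the MEK inhibitor PD0325901 (0.1 µM), the ROCK inhibitor Y27632 (10 µM) in the drop stage, and then a medium named DM for 1 day. The labels give neither the altered part of Kcnh2 nor the number of clones, and do not say whether replicates came from separate cultures. The p-values below therefore measure only the spread between these samples.

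Pou5f1 (OCT4), Sox2 and Nanog form the core circuit that holds a cell pluripotent, and each binds its own gene and those of the others. Around this core, Klf2, Klf4, Klf5, Esrrb, Tfcp2l1 and Tbx3 sustain the naive state of the early epiblast, downstream of LIF, Wnt and MEK inhibition. When cells leave that state the naive factors are switched off first, while Pou5f1 persists into the epiblast that forms the germ layers. Several of the 10 also work elsewhere: Sox2 in neural progenitors, Klf4 and Klf5 in epithelia, Tbx3 in mesoderm and endoderm, and Nanog, Pou5f1 and Dppa3 in germ cells.

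Promoters were taken from RefSeq (GRCr8, a later build than the rn6 of the tables) for the 7 members with an entry: Nanog, Sox2, Klf4, Klf5, Esrrb, Tfcp2l1 and Dppa3. The first 130 of the 250 bases before the annotated start are printed for the gene that differed most between libraries (Nanog), for the core factor that differed least (Sox2), and for Dppa3, the naive gene of highest level and a neighbour of Nanog. Capitals mark a composite octamer-Sox element in Nanog, an octamer-like element in Sox2 and the letters of a TATA box in Dppa3, at bases -130 to -125. The stretches lie at chr4:157615437-157615566, chr2:119464881-119465010 and chr4:157523176-157523305, all on the plus strand.
Nanog: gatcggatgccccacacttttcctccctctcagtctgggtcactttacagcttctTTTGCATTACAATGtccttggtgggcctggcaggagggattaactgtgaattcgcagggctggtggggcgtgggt
Sox2: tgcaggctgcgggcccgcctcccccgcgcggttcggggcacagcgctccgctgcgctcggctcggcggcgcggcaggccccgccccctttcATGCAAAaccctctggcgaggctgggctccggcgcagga
Dppa3: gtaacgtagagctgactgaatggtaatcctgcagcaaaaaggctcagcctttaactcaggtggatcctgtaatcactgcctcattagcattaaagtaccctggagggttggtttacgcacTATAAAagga

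The composite element joins a Sox site and an octamer site, and in the Nanog promoter such an element is known to bind OCT4 and SOX2 together. Written as CATTGTNATGCAAA and searched on both strands over the 250 bases before each start, it matched 2 of the 33469 promoters in the table (0.00598%), 1 of them that of Nanog, at bases -195 to -182. Such an element was already known in the Nanog promoter, so this match was not a test. Its octamer part ATGCAAA, which overlaps the composite in Nanog, matched 4.08% of all promoters and, among the members, also Sox2 at bases -159 to -153. The Sox part CATTGT matched 11.1% of promoters and only Nanog among the 7. The TATA box letters TATAAA matched 12.9%, with Dppa3 and Klf4 among them. A KLF motif, CCNCNCCC, matched 42.8% of all promoters and those of Nanog, Sox2, Klf5, Esrrb and Tfcp2l1. The STAT3 motif TTCNNNGAA matched 7.67% of promoters, with Klf4 and Esrrb among them. No member matched the full octamer ATGCAAAT (1.56% of promoters), the Esrrb motif AAGGTCA (3.99%) or the Tfcp2l1 motif CCAGNNNNNNCCAG (2.76%) in this window.

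The values are RPKM, read numbers divided by transcript length and by the size of the library. Genotypes are compared as differences in log2(RPKM + 1), in which the changes of weakly expressed genes are understated. Kcnh2 itself (rn6 chromosome 4, 7355573 to 7387253) was at 2.61 and 1.45 RPKM in the WT libraries and at 0.108 and 0.504 in Kcnh2-/- (limma adjusted p = 0.980). Absolute read depth is unknown. Between 17610 and 17833 genes were above 0 in each library. Genes not matched to RefSeq as protein-coding gave 90.3% to 99.5% of the RPKM sum, and these include genes without any match. The sums split by replicate number, at 7.95e+07 and 1.09e+08 in the libraries numbered 1 and at 1.17e+07 and 8.93e+06 in those numbered 2. The labels name no batch, so differences within each number are given beside the pooled ones.

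All 10 factors were detected in all 4 libraries. In the fit without a replicate term, none differed between the genotypes beyond the spread of the replicates. With a replicate term and protein-coding genes alone, none passed an adjusted p of 0.05 either, but Dppa3 was near it (limma adjusted p = 0.0507). The libraries split by replicate number, with a median member level of 2.93 RPKM in WT and 8.98 in Kcnh2-/- at number 1 and of 23.6 and 33.2 at number 2. WT replicate 1 held the lowest value of 8 of the 10 genes. In the plot of RPKM by gene, both libraries numbered 2 stand above both numbered 1 for all 10 factors, an order that 29.5% of all 12355 genes tested showed.

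**Figure D1:**
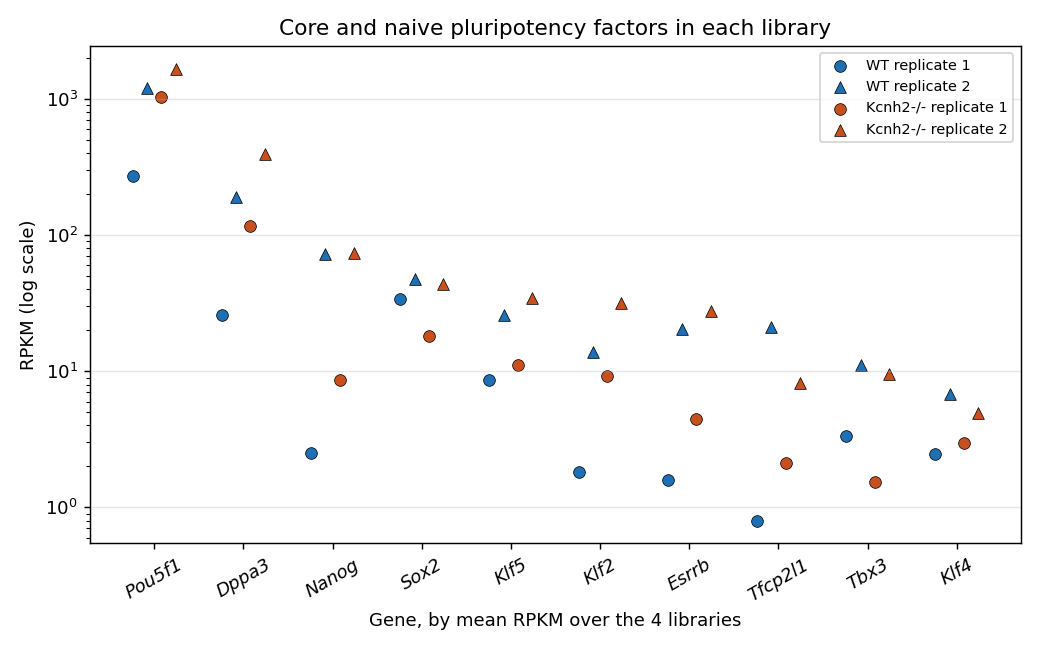
RPKM (log axis) of the 10 pluripotency factors in each of the 4 libraries, 1 point per library, with WT in blue, Kcnh2-/- in orange, circles for replicate 1 and triangles for replicate 2. Within each genotype the triangle lies above the circle for all 10 genes, and the ranges of WT and Kcnh2-/- overlap for all 10.

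Of the core factors, Pou5f1 (rn6 chromosome 20, 3747220 to 3751994) was by far the most abundant. It was at 273 RPKM in WT replicate 1, 1203 in WT replicate 2, 1043 in Kcnh2-/- replicate 1 and 1679 in Kcnh2-/- replicate 2. WT replicate 1 stood apart from the other 3, and the genotypes overlapped because WT replicate 2 exceeded Kcnh2-/- replicate 1. The difference in log2(RPKM + 1), Kcnh2-/- minus WT, was 1.20 ± 0.81 (SE, n = 2 each, limma adjusted p = 0.980). Pou5f1 ranked 290th among the 18618 protein-coding genes in WT replicate 1 and between 86th and 96th in the other libraries. It made up 72.8% to 85.6% of the summed RPKM of the 10 factors.

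Nanog (rn6 chromosome 4), the core factor known to vary most from cell to cell in pluripotent cultures, was at 2.50 and 72.6 RPKM in the WT libraries and at 8.69 and 74.1 in Kcnh2-/-, replicates 1 and 2 in that order. Both libraries numbered 2 were high and close to each other, and both numbered 1 were low. Its log2 difference between genotypes was 0.75 ± 1.77 (SE, n = 2 each, limma adjusted p = 0.981). Per 100 RPKM of Pou5f1, Nanog stood at 0.913 and 0.834 in replicate 1 of WT and Kcnh2-/-, and at 6.03 and 4.42 in replicate 2. The proportion of these core factors separated by replicate number, with the genotypes close at each.

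Sox2 (rn6 chromosome 2, 121165136 to 121167545), the partner with which OCT4 binds composite sites, varied least among the core factors. It was at 33.9 and 47.8 RPKM in the WT libraries and at 18.1 and 43.8 in Kcnh2-/-. The lowest value was that of Kcnh2-/- replicate 1, where Pou5f1 was 3.81 times as high as in WT replicate 1. The log2 difference was -0.49 ± 0.50 (SE, n = 2 each, limma adjusted p = 0.980). The level of Pou5f1 relative to Sox2 was 8.07 and 25.2 in WT and 57.6 and 38.3 in Kcnh2-/-, in replicates 1 and 2. This ratio was higher in both Kcnh2-/- libraries than in either WT library. It was chosen after the values were seen and was not tested.

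The Kruppel-like factors overlap in function in mouse embryonic stem cells, where loss of all 3 together is needed to collapse self-renewal. In these libraries they differed in level and in pattern. Klf2 (rn6 chromosome 16, 19223086 to 19225037) was at 1.83 and 13.9 RPKM in the WT libraries and at 9.27 and 31.7 in Kcnh2-/-. It was 5.06-fold higher in Kcnh2-/- than in WT within the libraries numbered 1 and 2.29-fold higher within those numbered 2, the widest ratio in both among the members that were higher in Kcnh2-/-. The pooled log2 difference was 1.50 ± 1.00 (SE, n = 2 each, limma adjusted p = 0.980).

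Klf5 (rn6 chromosome 15, 83703790 to 83722921), also a factor of the trophectoderm and of gut epithelium, was at 8.64 and 26.0 RPKM in the WT libraries and at 11.2 and 34.6 in Kcnh2-/-. Its ratio of Kcnh2-/- to WT was alike at both numbers, 1.30 and 1.33. The gap between replicates was alike in both genotypes as well, 3.01-fold in WT and 3.09-fold in Kcnh2-/-. The log2 difference between genotypes was 0.37 ± 0.75 (limma adjusted p = 0.980).

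Klf4 (rn6 chromosome 5, 72283312 to 72287669), a direct STAT3 target and one of the reprogramming factors, was the lowest member by mean level. It was at 2.45 and 6.79 RPKM in the WT libraries and at 2.98 and 4.92 in Kcnh2-/-. Both Kcnh2-/- values lay between those of WT. Its log2 difference was -0.096 ± 0.53 (limma adjusted p = 0.991).

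Esrrb (rn6 chromosome 6, 110410140 to 110455906), an orphan nuclear receptor and a target of both Nanog and Wnt signalling, was at 1.58 and 20.5 RPKM in the WT libraries and at 4.47 and 27.9 in Kcnh2-/-. Its order of libraries was that of Nanog, and also of Pou5f1, Klf2, Klf5 and Dppa3. The gap between replicates was smaller than that of Nanog: a log2 of 3.06 in WT and 2.40 in Kcnh2-/-, against 4.40 and 2.95. The log2 difference between genotypes was 0.76 ± 1.32 (limma adjusted p = 0.980).

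Tfcp2l1 (rn6 chromosome 13, 34610683 to 34670124), which carries the LIF and STAT3 signal into the naive network, was at 0.800 and 21.2 RPKM in the WT libraries and at 2.12 and 8.25 in Kcnh2-/-. WT held both its lowest and its highest value. It was 2.65-fold higher in Kcnh2-/- within number 1 and at 0.388 of the WT level within number 2. Tfcp2l1 and Klf4 were the members with opposite differences at the 2 numbers. The pooled log2 difference of Tfcp2l1 was -0.24 ± 1.34 (limma adjusted p = 0.992).

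Tbx3 (rn6 chromosome 12, 42480559 to 42492526), a T-box repressor downstream of PI3K and LIF signalling, was at 3.37 and 11.1 RPKM in the WT libraries and at 1.53 and 9.50 in Kcnh2-/-. Like Sox2, it was lower in Kcnh2-/- at both numbers, at 0.454 and 0.859 of the WT level. The log2 difference of Tbx3 was -0.49 ± 0.89 (limma adjusted p = 0.980).

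Dppa3 (Stella), which shields the maternal genome from demethylation after fertilisation and marks naive and germ cells, was second in level to Pou5f1. It was at 26.1 and 191 RPKM in the WT libraries and at 117 and 393 in Kcnh2-/-. Kcnh2-/- was higher by 4.49-fold within number 1 and 2.06-fold within number 2, but WT replicate 2 exceeded Kcnh2-/- replicate 1. Its log2 difference, 1.58 ± 1.12 (SE, n = 2 each, limma adjusted p = 0.980), was the highest of the 10.

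Dppa3 and Nanog are neighbours, and the tables give both the same locus, rn6 chromosome 4, 155408232 to 155631856, which spans 4 genes. The other two are Gdf3, a TGF-beta family ligand of pluripotent cells, and Slc2a3, which encodes the glucose transporter GLUT3. Gdf3 was at 2.95 and 29.3 RPKM in the WT libraries and at 14.3 and 42.2 in Kcnh2-/-, with the same order of libraries as Dppa3 and Nanog. Slc2a3 was at 896 and 429 RPKM in the WT libraries and at 373 and 458 in Kcnh2-/-, and was highest in WT replicate 1, where the other three were lowest. The tables do not show how reads between these genes were divided. Nanog, Pou5f1 and Dppa3 also have processed copies in mammalian genomes, so the share of their reads that other copies could claim is uncertain.

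Counted together, 6 members were higher in Kcnh2-/- and 4 lower in the pooled comparison, with a median log2 difference of 0.56 against 0.0052 over the 12355 genes tested. None of the 10 passed the limma threshold of an adjusted p of 0.05, and none had an unadjusted p under 0.05. Of all genes tested, 0.113% passed (0.0324% higher and 0.0809% lower in Kcnh2-/-) and 3.38% had an unadjusted p under 0.05. The genotypes overlapped for all 10, while over all genes tested 32.0% did not overlap. For the members this overlap follows from both libraries numbered 2 standing above both numbered 1, and adds nothing to that split. An exact two-sided permutation test of 2 against 2 libraries cannot go below p = 0.333. In this fit, without a replicate term, the differences of Klf2, Dppa3 and Pou5f1 did not exceed the spread of the replicates.

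The median of the members turned with single libraries. Leaving out WT replicate 1 gave -0.71 and leaving out Kcnh2-/- replicate 2 gave -0.42. The median was 1.34 when Kcnh2-/- replicate 1 was left out and 1.92 when WT replicate 2 was. Klf2, Dppa3 and Pou5f1 were higher in Kcnh2-/- whichever library was left out: their smallest log2 differences were 0.30, 0.17 and 0.14. The other 7 changed direction when at least 1 library was left out.

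Within the replicate numbers, 6 of the 10 (Nanog, Pou5f1, Klf2, Klf5, Esrrb and Dppa3) were higher in Kcnh2-/- at both, against 30.8% of all genes tested. Sox2 and Tbx3 were lower at both, against 28.1% of all genes. The median log2 difference of the members was 0.94 within number 1 and 0.21 within number 2, and over all genes tested it was 0.0072 and 0.027. For Nanog the value within number 2 was 0.030, a ratio of 1.02, so its difference came almost entirely from the libraries numbered 1.

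**Figure D2:**
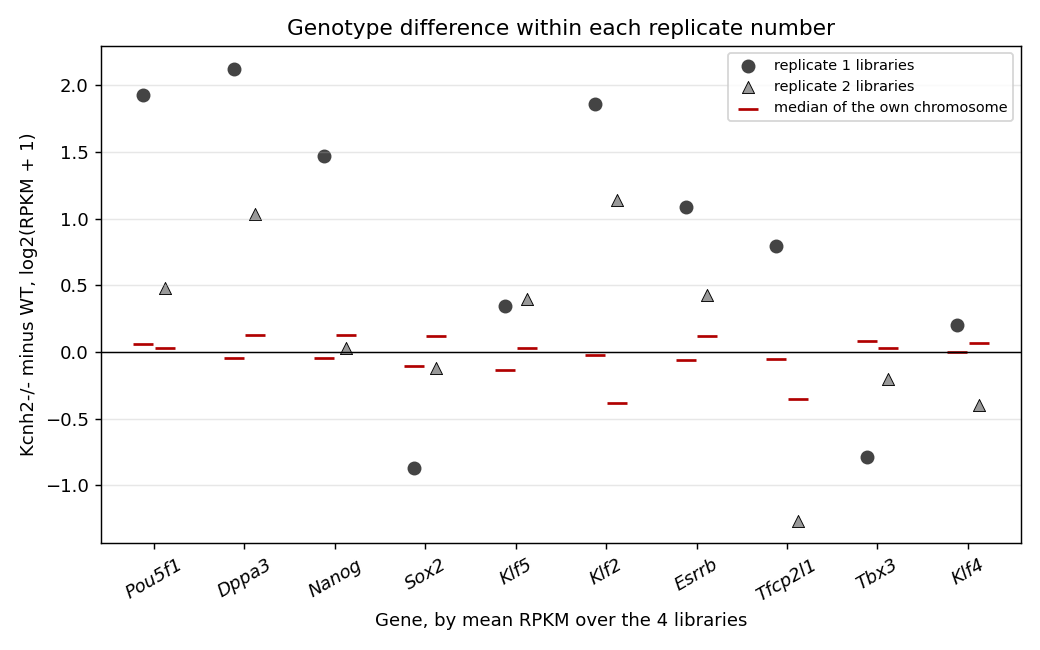
Difference in log2(RPKM + 1), Kcnh2-/- minus WT, of each factor within the libraries numbered 1 (circles) and 2 (triangles), with red dashes for the median of protein-coding genes on the gene's own chromosome. Klf2 and Dppa3 lie above 1 at both numbers, Sox2 and Tbx3 below 0 at both, and Tfcp2l1 at 0.80 and -1.27.

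Of the factors, 2 lie on chromosomes that stood lower as a whole in Kcnh2-/- within number 2. Protein-coding genes of chromosomes 13 and 16, which hold Tfcp2l1 and Klf2, had median log2 differences of -0.35 and -0.38 within number 2. Within number 1 the medians of these chromosomes were -0.051 and -0.022. The chromosomes of the other 8 had medians between -0.13 and 0.12 at either number. Less the median of its own chromosome, Klf2 stood at 1.88 within number 1 and 1.52 within number 2, and Tfcp2l1 at 0.85 and -0.91. For Nanog this subtraction gave 1.52 and -0.095, a change of sign at number 2, while the average over both numbers kept its direction for each of the 10.

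The gap between libraries of one genotype was wider than the gap between genotypes for most members. Replicate 2 exceeded replicate 1 in both genotypes for 10 of 10, against 39.5% of all genes tested, and by a log2 of 1 or more in both for 7 of 10, against 4.78%. The exceptions at that size were Pou5f1, at 2.13 in WT and 0.69 in Kcnh2-/-, Klf4, at 1.17 and 0.57, and Sox2, at 0.48 and 1.23. The median gap of the members was 2.26 in WT and 1.62 in Kcnh2-/-, and that of all genes was 0.071 and 0.086. Nanog had the widest gap in both genotypes, 4.40 and 2.95. For 8 of the 10, all but Pou5f1 and Sox2, the gap in each genotype was larger than the pooled genotype difference.

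**Figure D3:**
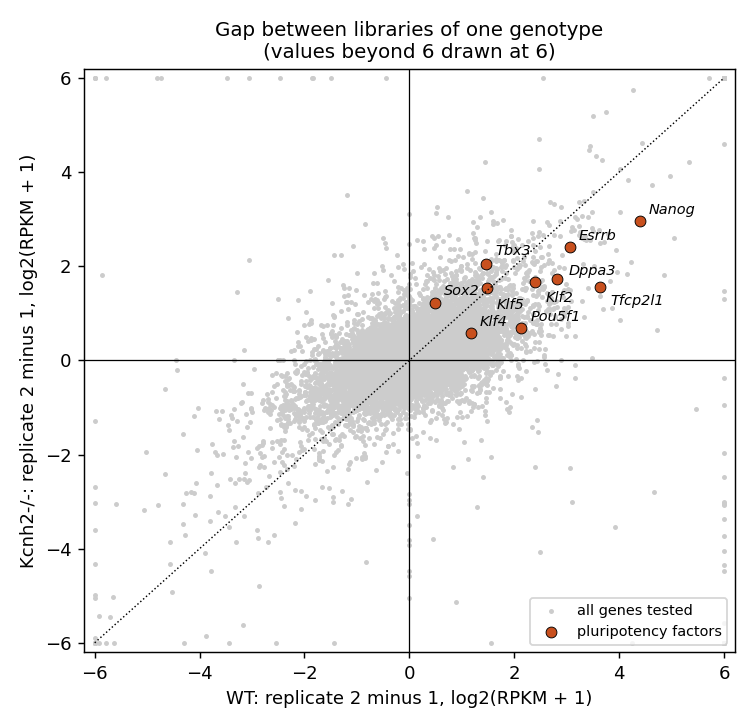
Difference in log2(RPKM + 1) between replicates 2 and 1 in WT (horizontal) and in Kcnh2-/- (vertical) for all 12355 genes tested (grey) and the 10 factors (orange), with a dotted line where both are equal. All 10 factors lie in the upper right part, and 7 of them below the dotted line, where the gap is wider in WT.

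The gap was wider in WT for 7 members and in Kcnh2-/- for Sox2, Tbx3 and, by 0.059, Klf5. Tfcp2l1 differed most in this respect: its gap was 3.63 in WT and 1.57 in Kcnh2-/-. With 1 gap per genotype this difference has no replicate and was not tested. Embryoid bodies are mixtures, and in bulk RNA fewer pluripotent cells and less RNA per cell cannot be told apart.

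Other genes of the naive state split by replicate number in part. Of 18 further naive genes listed, 15 matched a row and 12 passed the filter of 1 RPKM in 2 libraries. None passed the test in either direction, 6 were higher and 6 lower in Kcnh2-/-, and the median log2 difference was 0.41. Replicate 2 exceeded replicate 1 in both genotypes for 10 of the 12, against 39.5% of all genes tested, and both libraries numbered 2 exceeded both numbered 1 for 7 of the 12, against 29.5%. The germline methylation cofactor gene Dnmt3l was at 41.2 and 342 RPKM in the WT libraries and at 173 and 382 in Kcnh2-/-. Tdh, a threonine dehydrogenase gene of high activity in mouse embryonic stem cells, was at 2.68 and 58.5 against 8.12 and 80.5. Dnmt3l and Tdh had the order of libraries of Nanog, Pou5f1, Klf2, Klf5, Esrrb and Dppa3. Fgf4, the OCT4 and SOX2 target that drives the exit from the naive state, was at 5.45 and 15.3 against 19.4 and 39.8. The chromatin gene Dppa4 was at 60.3 and 72.4 against 152 and 113. For Fgf4 and Dppa4 both Kcnh2-/- libraries exceeded both WT libraries. Such a separation, in either direction, held for 4 of these 12 genes and for 32.0% of all genes tested.

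Partners and shared targets of the core factors gave a mixed picture. All 15 of the 16 listed that matched a row were tested, 9 were higher and 6 lower in Kcnh2-/-, none passed, and the median log2 difference was 0.23. Within number 1 this median was 0.82 and within number 2 it was -0.49. The Nodal co-receptor gene Tdgf1 (Cripto) was at 41.3 and 226 RPKM in the WT libraries and at 240.3 and 409 in Kcnh2-/-, lowest, like Pou5f1, in WT replicate 1. Trim28, a silencer of retroviral elements, was at 341 and 747 against 525 and 668. The RNA-binding protein gene Lin28a was at 196 and 220.1 against 168 and 101, and L1td1, another RNA-binding protein gene, at 59.3 and 111 against 140 and 111.

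Genes of the LIF receptor and STAT3, the pathway upstream of Klf4 and Tfcp2l1, had no member past the threshold. Of 12 listed, 11 were tested, 3 were higher and 8 lower in Kcnh2-/-, and the median was -0.14. It was -0.46 within number 1 and 0.15 within number 2, and 4 of the 11 were lower at both. The median gap between replicates was 0.11 in WT and 0.84 in Kcnh2-/-. The co-receptor gene Il6st (gp130) was at 17.6 and 25.7 RPKM in the WT libraries and at 12.4 and 29.4 in Kcnh2-/-. Among the others of highest level, the kinase gene Pim1 was at 28.0 and 45.9 against 26.3 and 63.5, Jak1 at 18.9 and 10.8 against 13.5 and 13.7, and the phosphatase gene Ptpn11 at 60.3 and 42.3 against 52.1 and 41.9.

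Regulators of the exit from naive pluripotency were evenly split by genotype. All 14 were tested, 7 were higher and 7 lower in Kcnh2-/-, none passed, and the median was -0.034. They too split by replicate number in part. Both libraries numbered 2 exceeded both numbered 1 for 9 of the 14, against 29.5% of all genes tested. The Notch effector gene Rbpj was at 30.3 and 65.3 RPKM in the WT libraries and at 29.5 and 71.6 in Kcnh2-/-, high in both libraries numbered 2. Mbd3, of the NuRD repressor complex, was at 38.3 and 56.0 against 43.9 and 55.1. For Rbpj, which has 2 rows, that of higher mean was used.

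Formative and primed epiblast genes come on as the naive factors go off. Their sum was lowest in WT replicate 1 and highest in Kcnh2-/- replicate 1, and Dnmt3b made up most of it in each library. Of 12 listed, 9 matched and 7 were tested, with 2 higher and 5 lower in Kcnh2-/-, none past the threshold, and a median of -0.28. The DNA methyltransferase gene Dnmt3b was at 430.1 and 1016 RPKM in the WT libraries and at 1174 and 618 in Kcnh2-/-, and Dnmt3a at 62.7 and 160 against 240.0 and 156. Sox11 was at 72.4 and 28.9 against 41.6 and 34.0, and Sall2 at 21.8 and 31.5 against 39.5 and 16.3. Not all followed the sum: Sox11 was highest in WT replicate 1, as was Cdh2, at 12.9 and 1.22 against 2.43 and 0.562. Zic2 was lowest in Kcnh2-/- replicate 1, at 7.66 and 23.0 against 4.42 and 15.1. Otx2 was listed at 0 in all 4 libraries. Fgf5, the textbook marker of the formative epiblast, was at 0.423 RPKM in WT replicate 1 and listed at 0 in the other 3.

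The summed levels of endoderm and of mesoderm markers were highest in the library where most members were lowest. The summed RPKM of 10 primitive and visceral endoderm markers was 88.9 and 18.3 in WT and 20.6 and 7.64 in Kcnh2-/-, lowest where the members summed highest. All 7 tested were lower in Kcnh2-/- and none passed (median -1.07). Of the defining markers, Apoa1 was listed at 0 in both Kcnh2-/- libraries and Afp in WT replicate 2. The 9 primitive streak and mesoderm markers summed to 42.4 and 20.1 against 22.9 and 11.2, with the streak factor gene T at 13.9 and 3.30 against 4.96 and 0.290. Eomes, the marker of highest mean in that list, had another order, at 8.70 and 9.05 in WT against 11.5 and 9.79 in Kcnh2-/-, lowest in WT replicate 1. In that list 1 of the 4 tested was higher and 3 lower, and none passed (median -1.38). For comparison, the 10 pluripotency factors summed to 355 and 1614 RPKM in WT and to 1219 and 2307 in Kcnh2-/-.

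**Figure D4:**
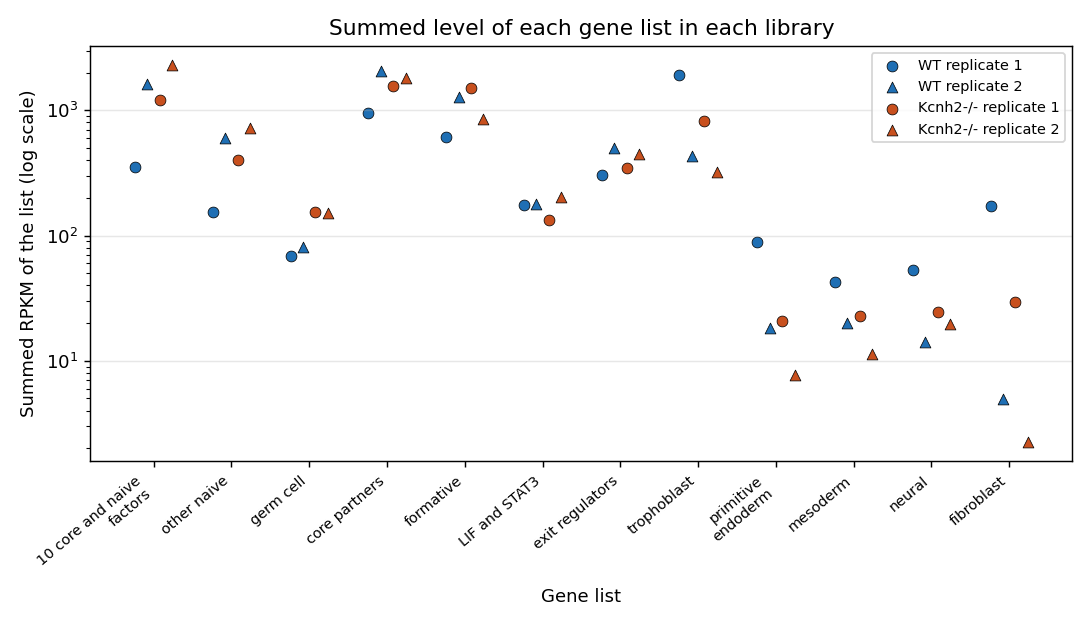
Summed RPKM (log axis) of each gene list in each library, with WT in blue, Kcnh2-/- in orange, circles for replicate 1 and triangles for replicate 2. WT replicate 1 is the lowest library for the core and naive factors. It is also the lowest for other naive genes, germ cell markers, core partners, formative genes and exit regulators. For trophoblast, primitive endoderm, mesoderm, neural and fibroblast markers it is the highest.

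The summed levels of fibroblast, neural and trophoblast markers were also highest in WT replicate 1. The 7 fibroblast markers that matched summed to 172 and 4.93 RPKM in WT and to 29.5 and 2.23 in Kcnh2-/-, of which Vim, at 153 and 3.60 against 24.8 and 1.85, made up 73.0% to 89.2%. Next in mean level were Col3a1, at 9.41 RPKM in WT replicate 1 and 1.44 in Kcnh2-/- replicate 1, and Postn, at 6.49 in WT replicate 1, and both were under 0.25 in the other libraries. The defining collagen gene Col1a1 was at 0.560 and 0.227 against 1.40 and 0.0953. The 10 trophoblast markers summed to 1920.2 and 428 against 828 and 324, mostly from Krt8 and Krt18. Cdx2 was at 1.68 and 0.214 against 0.264 and 0.185. Krt8, Krt18, Cdx2, Gata3 and Hand1 were highest in WT replicate 1, but the other trophoblast markers were not. Eomes, Elf5 and Ascl2 were lowest there, Krt7 was highest in Kcnh2-/- replicate 1 and Gata2 in WT replicate 2. The 6 neural markers that matched summed to 53.3 and 14.2 against 24.4 and 19.8, mostly from the tubulin gene Tubb3, at 44.6 and 11.8 against 17.9 and 16.2. The neuronal gene Map2 was lowest in WT replicate 1 instead, at 0.293 and 0.566 against 1.76 and 1.41. Pax6 was under 0.5 in all 4, and Neurog2 was listed at 0 in both WT libraries. Of the genes tested, 1 of 4 trophoblast, 1 of 3 neural and 0 of 2 fibroblast markers were higher in Kcnh2-/-, and none passed. The part of these markers in the members' levels was not tested.

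Germ cell markers matter here because Nanog, Pou5f1 and Dppa3 are also germ cell genes. All 9 were tested, 7 were higher and 2 lower in Kcnh2-/-, none passed, and the median was 1.08. Their sums were 69.2 and 81.5 RPKM for WT and 155 and 152 for Kcnh2-/-. Without Ddx4, which gave 11.2% to 68.0% of each sum, they were 61.5 and 53.5 for WT and 49.5 and 70.6 for Kcnh2-/-, and the genotypes overlapped. Both libraries of one genotype exceeded both of the other for 4 of the 9 genes, 3 of them higher in Kcnh2-/-, against 32.0% of all genes tested in either direction. The germline helicase gene Ddx4 was at 7.75 and 27.9 against 105 and 81.9, and the meiotic gene Sycp3 at 1.32 and 6.43 against 12.6 and 19.8. Tfap2c, a factor shared by germ cells, trophoblast and naive cells, was at 2.26 and 20.9 against 13.9 and 20.4, and Kit at 47.7 and 11.8 against 11.5 and 5.12. The part of germ cell RNA in the levels of Dppa3, Nanog and Pou5f1 was not tested.

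Among themselves the members fell into patterns. Likeness was measured as the Euclidean distance between profiles over the 4 libraries, each the log2(RPKM + 1) of a gene less its own mean. Klf2 and Dppa3 were closest of all 45 pairs, at 0.32, followed by Pou5f1 and Klf2 at 0.78 and Sox2 and Klf4 at 0.78. Nanog and Sox2 were farthest apart, at 3.27. Klf2, Dppa3 and Pou5f1 were lowest in WT replicate 1 alone, with Kcnh2-/- replicate 1 near their own mean. Nanog, Esrrb and Tfcp2l1 were low in both libraries numbered 1.

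Of 7993 other genes with a mean level of at least 5 RPKM, the 5 closest to the median profile of the members were Alpl, Ifi27l2b, Dkkl1, Ifitm1 and Adprhl1, at distances of 0.41 to 0.48. Alpl, which encodes tissue-nonspecific alkaline phosphatase, was at 0.867 and 8.81 RPKM in the WT libraries and at 2.82 and 10.6 in Kcnh2-/-. Dkkl1 was at 0.858 and 9.70 against 3.07 and 10.9, and Ifitm1 at 6.42 and 43.0 against 16.4 and 50.1. A profile over 4 libraries has few points, and the order of such distances carries no test.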

How the data were processed

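The deposited RPKM values, 1 table per library with a gene identifier, symbol and rn6 locus, were made by the authors with TopHat2 2.0.13 and Cufflinks 2.2.1, per the submitters' processing notes. Libraries were strand-marking, depleted of ribosomal RNA and read as paired 100 bp ends, per the labels' protocols. Which annotation was counted was not given in the sources used here, and the RPKM scale hides read depth.

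Genotypes were compared with limma 3.58.1 in R 4.3.3 on log2(RPKM + 1), by a two-sided moderated test (lmFit and eBayes, trend on). The 12355 genes that reached 1 RPKM in at least 2 libraries entered the fit, and the threshold was a Benjamini-Hochberg adjusted p of 0.05 over all of them. The fit was tested on simulated data. All 10 members passed the filter. Symbols were matched to RefSeq (GRCr8) for biotypes, with 19320 of 32753 matched. The members and gene lists were chosen with earlier results of these data known. From each list the 4 genes of highest mean RPKM are named, except that some of the exit regulators are not reported here. Alternatives changed the pseudocount, filter, scaling, gene set, variance model, replicate term, libraries and chromosome baseline. Summaries used pandas 2.3.3 and numpy 2.4.6 under Python 3.11.15, and plots matplotlib 3.10.9.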

Additional observations from a re-analysis of the deposited data

How the results depend on the processing

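No member passed the threshold under any of the 13 alternatives tested. The 99 member values from alternatives that kept all 4 libraries, including those less the median of the own chromosome, all kept their direction. A change of filter, gene set, variance model or replicate term cannot alter a member's difference, so there the direction was fixed in advance. Only changes of pseudocount, scaling and chromosome baseline could have reversed it. With 1 library left out, 13 of 40 were reversed. The ranges over the libraries left out were -1.45 to 2.95 for Nanog, -1.11 to 0.12 for Sox2, -0.68 to 0.49 for Klf4, -0.40 to 1.14 for Klf5, -0.77 to 2.29 for Esrrb, -2.05 to 1.58 for Tfcp2l1 and -1.52 to 0.53 for Tbx3. The count of genes past the threshold, 14 over all genes, was 1 with no filter (more genes tested), 3 with protein-coding genes alone and 3 without a variance trend. For both counts of 3 the cause was not tested. With the replicate block it was 28 (14 higher, 14 lower) and with the replicate block and protein-coding genes alone 87 (61 higher, 26 lower). The labels pair no libraries beyond the number: same-numbered deviations from the group means correlated at 0.38 across the 12355 genes and at 0.58 across the 10833 protein-coding genes. The smallest limma adjusted p of any member was 0.277 with the replicate block (Dppa3) and 0.0507 with the block and protein-coding genes alone (Dppa3, with Klf2 at 0.0988). The 5 RPKM filter left out Klf4. Without a count of reads, how much of the spread of the low members is sampling noise is unknown.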
